A study of Homo sapiens with 18 samples.

Results

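The 2 main copies of 7SL RNA (RN7SL1 and RN7SL2), 7SK RNA (RN7SK) and the RNAs of RNase MRP (RMRP) and RNase P (RPPH1) together filled 39.6% to 60.1% of all TPM (read counts divided by transcript length and scaled to the same sum in every library) in each of 18 RNA-seq libraries from 2 acute myeloid leukemia cell lines. These 5 of the 45372 gene symbols in the table were selected on their mean TPM, so their high levels are a description and carry no test. RMRP stands in the table as RMRP_1. The lowest of the 5 was RPPH1, with a mean of 21937 TPM, and the first gene outside the selection was FTL, the ferritin light chain, with a mean of 9938 TPM. All 5 ranked among the 5 highest rows of every library.

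The libraries came from MV4-11 and THP1, established lines derived from acute myeloid leukemia. Each line received DMSO, 50 nM IACS-010759 (IACS) for 8 h or 50 nM IACS for 24 h, with 3 libraries per group described as independent replicates. IACS inhibits complex I of the mitochondrial respiratory chain. The labels do not say whether a DMSO library belongs to 8 h or 24 h. Each line is 1 established culture, so a difference between MV4-11 and THP1 is a difference between these 2 lines, with n counting libraries of a line. A lower level of an RNA and fewer cells that make it cannot be told apart in bulk RNA. Of the myeloid markers, SPI1 lay between 85.6 and 147 TPM and HOXA9 between 19.9 and 33.7 TPM over all libraries, whereas MEIS1 lay between 20.7 and 29.3 TPM in MV4-11 and at or below 0.0284 TPM in THP1. CD33 lay between 54.7 and 85.4 TPM in MV4-11 and between 24.0 and 38.6 TPM in THP1, and LYZ between 3797 and 7073 TPM and between 613 and 1100 TPM, and both were called lower in THP1. The T cell, erythroid, epithelial and fibroblast markers CD3E, HBB, EPCAM and COL1A1 were at or below 0.172 TPM.

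All 5 RNAs are made by RNA polymerase III and lack the poly(A) tails of messenger RNAs. 7SL, encoded by RN7SL1 and RN7SL2, is the RNA core of the signal recognition particle, which brings ribosomes making secreted and membrane proteins to the endoplasmic reticulum. 7SK holds the elongation kinase P-TEFb in an inactive particle with HEXIM, LARP7 and MEPCE. RMRP is the RNA of RNase MRP, which cuts precursor ribosomal RNA, and RPPH1 is the RNA of RNase P, which removes the leaders of precursor tRNAs. The libraries were made from total RNA with the TruSeq RNA v2 kit, which enriches polyadenylated RNA. The part of that step in these levels was not tested.

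The 2 copies of 7SL differ at few bases, and this sets how far their values can be separated. RN7SL1 lies on the plus strand of chromosome 14, within an intron of RPS29, which is read from the opposite strand. RN7SL2 lies on the minus strand of the same chromosome and overlaps an exon of a long noncoding RNA of the same strand. Their transcripts, of 299 and 300 bases in GENCODE release 44 on GRCh38, were identical at 295 of 300 aligned columns (98.3%), with 4 mismatches and 1 gap. Of the 200 windows of 100 bases in RN7SL1, the read length of the study, 106 (53.0%) occurred whole in RN7SL2, so a read from such a stretch cannot be told apart between the copies. The separate values of RN7SL1 and RN7SL2 therefore depend on how the counting divided shared reads, and their sum (7SL below) is the firmer measure against this.

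RN7SK, RMRP and RPPH1 are each a single-exon gene, and the other rows of their families held at most 0.0868% of a family's TPM in any library. Their sequences were not compared with those rows. RN7SK lies at chr6:52995621-52995948 (GRCh38) on the plus strand, is 328 bases long and overlaps a second record of the same strand, named 7SK. Its first 110 bases are shown because they hold the 5′ hairpin that HEXIM binds, from GENCODE release 44, 5′ to 3′ in lower case, with each GATC (GAUC in the RNA) in capitals.

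RN7SK: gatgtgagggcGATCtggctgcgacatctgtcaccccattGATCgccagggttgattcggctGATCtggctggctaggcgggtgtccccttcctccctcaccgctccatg

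GATC began at bases 12, 41 and 63 of RN7SK and at no other base. RMRP, of 264 bases, lies at chr9:35657754-35658017 on the minus strand, 273 bases from CCDC107 on the other strand. RPPH1, of 333 bases, lies at chr14:20343075-20343407 on the minus strand, 208 bases from PARP2 on the other strand, and overlaps an exon of a long noncoding RNA of its own strand. Whether the counting used the strand is not given in the sources used here.

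**Figure D1:**
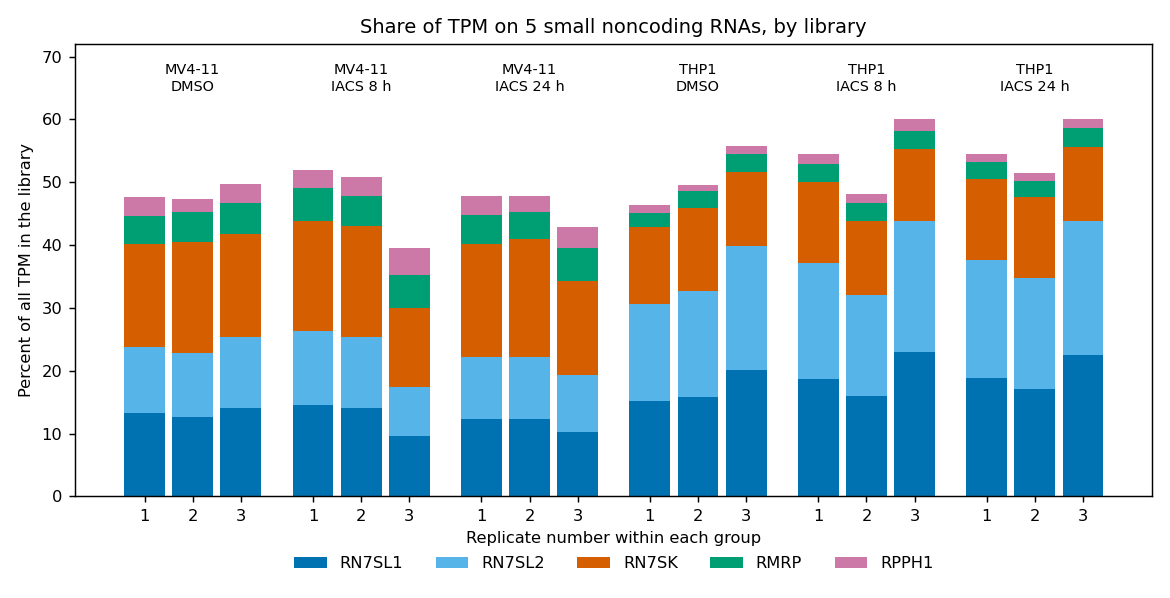
Percent of all TPM (y axis) held by the 5 RNAs in each of the 18 libraries, stacked by RNA, with the replicate number on the x axis and the group above the bars. The 7SL copies (blues) take 30.7% or more of every THP1 library and 26.4% or less of every MV4-11 library, while replicate 3 has the tallest bar in all 3 THP1 groups and the shortest in both IACS groups of MV4-11.

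Together the 5 RNAs held 47.3% ± 3.87 of the TPM in MV4-11 and 53.4% ± 4.93 in THP1 (SD, n = 9 each). The summed share was 47.7, 47.3 and 49.7% in MV4-11 DMSO, 51.9, 50.9 and 39.6% after 8 h of IACS and 47.8, 47.9 and 42.9% after 24 h (replicates 1, 2 and 3, here and in all such lists). In THP1 it was 46.3, 49.6 and 55.8% in DMSO, 54.5, 48.1 and 60.0% after 8 h and 54.4, 51.4 and 60.1% after 24 h. The lines overlapped, and much of their distance came from the libraries numbered 3: without them the difference between the lines fell from 6.08 to 1.82 percentage points.

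These shares belong to a length-corrected scale. When each TPM was multiplied by the exon length of its gene, the same 5 RNAs held 4.58% to 9.43% of the estimated reads, with a mean of 6.27% ± 0.857 in MV4-11 and 7.39% ± 1.42 in THP1. The low values of single-exon genes fell on steps of whole reads in 84.8% to 94.9% of cases within a tolerance of 0.02, which put the libraries at 21.8e6 to 28.7e6 reads or read pairs on the matched genes. On that estimate RN7SL1 rested on at least 267900 reads and RPPH1, the least, on at least 32570 in every library. Counting error was thus small beside the spread between replicates, whose coefficient of variation ran from 1.11% to 22.9% of the mean over the 5 RNAs and 6 groups.

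The order of the 5 RNAs was the same in all 9 MV4-11 libraries, with RN7SK first, then RN7SL1, RN7SL2, RMRP and RPPH1. In THP1 a 7SL copy came first in every library, RN7SL1 in 5 and RN7SL2 in 4, and RN7SK, RMRP and RPPH1 followed in that order. RN7SL1 and RN7SL2 differed from each other by less than their spread in THP1, whereas in MV4-11 RN7SL1 exceeded RN7SL2 in each library. RN7SK stood above RN7SL1 in each MV4-11 library, and RMRP stood above RPPH1 in all 18.

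RN7SL1 held a larger share of the TPM in THP1 than in MV4-11. In MV4-11 its share was 13.3, 12.6 and 14.0% in DMSO, 14.6, 14.1 and 9.60% after 8 h of IACS and 12.2, 12.3 and 10.2% after 24 h. In THP1 it was 15.2, 15.9 and 20.2% in DMSO, 18.7, 16.0 and 23.0% after 8 h and 18.9, 17.2 and 22.5% after 24 h. All 9 THP1 libraries lay above all 9 MV4-11 libraries, as they did for 11.9% of genes tested, and replicate 3 was the highest of each THP1 group.

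The second 7SL copy, RN7SL2, parted the lines further. Its share in MV4-11 was 10.6, 10.3 and 11.3% in DMSO, 11.8, 11.3 and 7.83% after 8 h and 10, 9.87 and 9.13% after 24 h. In THP1 the values were 15.5, 16.8 and 19.7%, then 18.5, 16.0 and 20.7%, then 18.7, 17.6 and 21.3%. All 9 THP1 libraries lay above all 9 MV4-11 libraries, as for 11.9% of genes tested. The lowest THP1 value was 15.5% against a highest MV4-11 value of 11.8%.

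RN7SK went the other way, with higher shares in MV4-11. They were 16.4, 17.6 and 16.3% in MV4-11 DMSO, 17.4, 17.7 and 12.5% after 8 h and 17.9, 18.8 and 15.0% after 24 h. In THP1 they were 12.2, 13.2 and 11.8%, then 12.9, 11.8 and 11.5%, then 12.9, 13.0 and 11.8%. The lines met at a single MV4-11 library, replicate 3 of 8 h IACS, which lay inside the THP1 range.

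RMRP, the RNase MRP RNA, held 4.46, 4.74 and 5.02% in MV4-11 DMSO, 5.33, 4.70 and 5.39% after 8 h and 4.66, 4.36 and 5.24% after 24 h. In THP1 it held 2.21, 2.61 and 2.87%, then 2.91, 2.85 and 2.86%, then 2.81, 2.47 and 2.97%. Every MV4-11 library lay above every THP1 library, as for 22.0% of genes tested, and the 3 THP1 libraries at 8 h lay closest together of all groups (coefficient of variation 1.11%).

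RPPH1, the RNase P RNA, had the largest fold between the lines of the 5, with a mean TPM 2.18 times higher in MV4-11, although its distance in percent was small. It held 3.01, 2.02 and 2.95% in MV4-11 DMSO, 2.80, 3.13 and 4.29% after 8 h and 3.02, 2.58 and 3.27% after 24 h. In THP1 the values were 1.26, 1.01 and 1.32% in DMSO, 1.53, 1.48 and 1.89% after 8 h and 1.16, 1.26 and 1.51% after 24 h. Every THP1 library lay below every MV4-11 library, as for 22.0% of genes tested. In THP1 all 3 libraries at 8 h lay above all 3 in DMSO, as did 0.704% of 13928 genes. The median log2 fold change of those genes was -0.12, so this share is not that of genes without a shift.

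**Figure D2:**
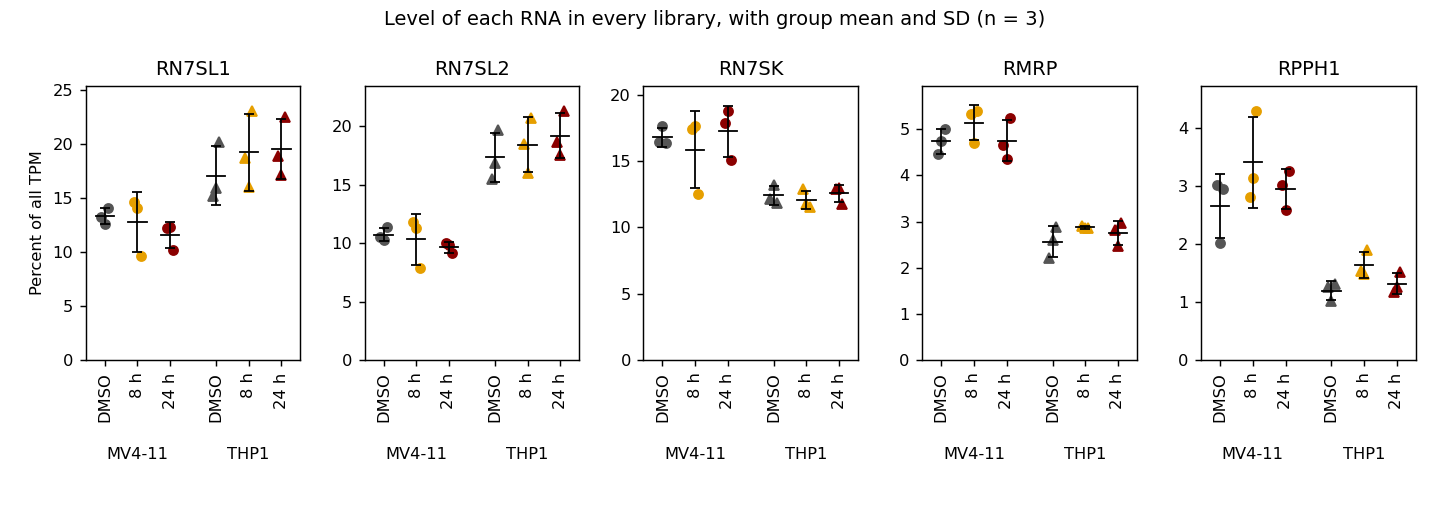
Percent of all TPM (y axis, from 0, own scale per panel) for each RNA in each library, with circles for MV4-11, triangles for THP1, and the mean and SD of each group of 3 in black. Both 7SL copies sit higher in THP1, RN7SK, RMRP and RPPH1 sit higher in MV4-11, and the 3 treatments of a line overlap for most RNAs.

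The comparison of the untreated lines asks how far the 5 RNAs differ between MV4-11 and THP1. In DMSO, RN7SL2 was higher in THP1 (log2 fold change 0.69, SE 0.17, adjusted p = 0.00249) and RMRP (-0.89, SE 0.14, adjusted p = 2.91e-05) and RPPH1 (-1.14, SE 0.19, adjusted p = 6.94e-05) were lower. These values come from limma on log2(TPM + 1) in a fit of 18 libraries, and a gene was called when its p, adjusted by Benjamini-Hochberg, was under 0.05 and its change exceeded 1.5-fold. RN7SK was lower in THP1 by 0.44 on the log2 scale with an adjusted p of 0.0263 in limma, but its change stayed under 1.5-fold. For RN7SL1 the log2 fold change of 0.35 had an adjusted p of 0.141 in limma and an interval from -0.04 to 0.74, although the 3 THP1 libraries lay above the 3 of MV4-11, as they did for 26.7% of genes. Thus 3 of the 5 RNAs were called, where 31.5% of the 12555 genes tested were called, 15.4% as higher and 16.1% as lower in THP1. The call of RN7SL2 without RN7SL1 also depends on how shared reads were divided, and the 7SL sum was not fitted in limma. Over all 9 libraries per line, both 7SL copies lay wholly above in THP1, as did 11.9% of genes, and RMRP and RPPH1 lay wholly below, as did 22.0% of genes.

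The RN7SL2 call depended on the scale. Relative to the TPM outside the 5 RNAs its log2 fold change was 0.76 with an adjusted p of 0.0581 in limma, and with median-of-ratios scaling it was 0.67 with an adjusted p of 0.208. RMRP and RPPH1 stayed called under both scalings. Without a filter on low values, none of the 5 was called.

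Ratios between the RNAs do not depend on the rest of a library. The ratio of RN7SL1 to RN7SL2 was 1.12 to 1.26 in MV4-11 (median 1.23) and 0.944 to 1.11 in THP1 (median 1.01). The difference of the mean log2 ratios was -0.27 for THP1 minus MV4-11, with an adjusted p of 5.48e-05 by an exact permutation test of 9 against 9 libraries, two-sided, adjusted over 4 ratios. All THP1 ratios lay below all MV4-11 ratios. Since shared reads were divided by the counting, this ratio belongs to the values as deposited.

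The sum of both 7SL copies was 1.18 to 1.55 times RN7SK in MV4-11 (median 1.40) and 2.48 to 3.80 times RN7SK in THP1 (median 2.89). It was 3.23 to 5.40 times RMRP in MV4-11 (median 4.95) and 11.2 to 15.3 times RMRP in THP1 (median 13.9). Neither ratio overlapped between the lines. The log2 differences were 1.12 and 1.54, with an adjusted p of 5.48e-05 each by the same exact permutation test. Any complete separation gets the smallest unadjusted p of this test. The 7SL share, which enters both ratios, already parted the lines (30.7% or more in THP1, 26.4% or less in MV4-11). RMRP lay the other way (2.97% or less, 4.36% or more), so 7SL to RMRP had to separate and its p adds no evidence. How many ratios of other genes separate the lines was not counted. RMRP was 1.26 to 2.34 times RPPH1 in MV4-11 and 1.52 to 2.58 times in THP1, which overlapped. For that ratio the log2 difference was 0.28, with an adjusted p of 0.0266 by the exact permutation test, and 0.0844 without the libraries numbered 3.

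**Figure D3:**
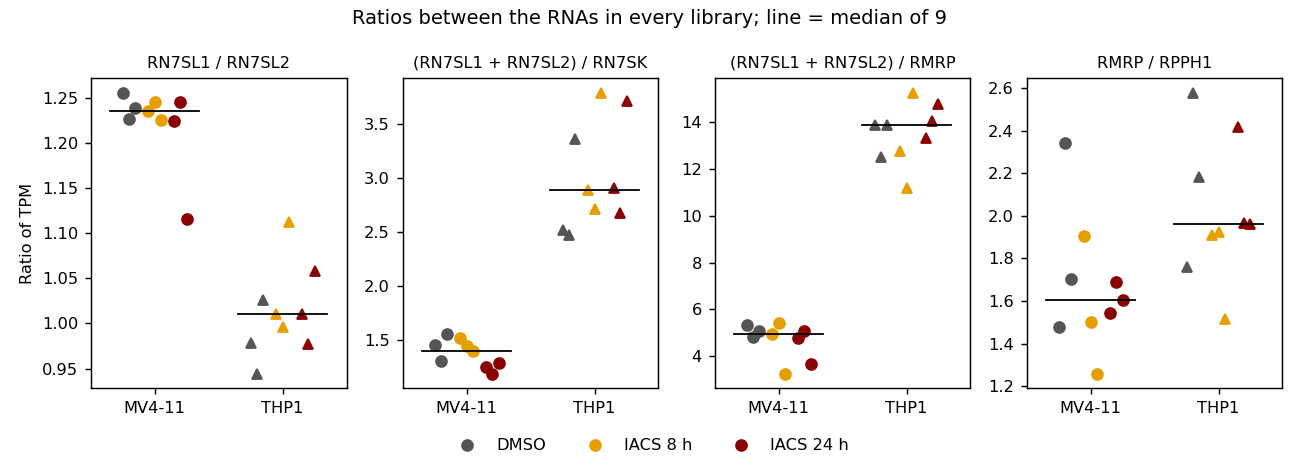
Ratio of TPM between the RNAs (y axes, linear, not starting at 0) in each library of MV4-11 (circles) and THP1 (triangles), colored by treatment, with the median of 9 libraries as a line. The first 3 ratios separate the lines without overlap, whereas RMRP to RPPH1 overlaps.

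RN7SL3, another 7SL gene at chr14:49853616-49853914 on the minus strand, separated the lines by far more than RN7SL1 or RN7SL2. It lay between 107 and 204 TPM in MV4-11 (median 187) and between 1584 and 1912 TPM in THP1 (median 1678). The mean in THP1 was 10.03 times that in MV4-11, against 1.48 times for RN7SL1 and 1.79 times for RN7SL2. In DMSO its log2 fold change was 3.19 (SE 0.20) with an adjusted p of 1.72e-10 in limma. RN7SL3 shared 97.7% of its aligned bases with RN7SL1 and 96.0% with RN7SL2, and 24 of the 200 windows of RN7SL1 occurred whole in it. Its values therefore also depend on how shared reads were divided, and its fold belongs to the values as deposited. RN7SL3 made up at most 0.0841% of the 3 copies in MV4-11 and 0.369% to 0.581% in THP1, so it moved the 7SL sum little. All 975 rows of 7SL, 7SK, RMRP and RPPH1 copies and pseudogenes outside the 5 RNAs, RN7SL3 among them, held at most 0.768% of a family in any library.

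Of the further polymerase III transcripts, 5 reached a mean of 1 TPM in both lines, and 3 of them were called, each higher in THP1, where 15.4% of all genes were called higher. Beside RN7SL3 these were BCYRN1, a neuronal cytoplasmic RNA derived from an Alu element, which is itself a relative of 7SL, and RNY3, a Y RNA. BCYRN1 lay between 22.3 and 78.2 TPM in MV4-11 and between 222 and 736 TPM in THP1, which did not overlap, as for 11.9% of genes. RNY3 lay between 598 and 1427 TPM in MV4-11 and between 933 and 1932 TPM in THP1, which overlapped.

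The next most abundant small noncoding RNAs were SNORD3A, SNORA73A, SNORA73B, RNU2-2P and RNY3. SNORD3A, the U3 small nucleolar RNA of ribosomal RNA processing, had a median of 6355 TPM in MV4-11 and 2185 TPM in THP1 without overlap, as for 22.0% of genes. SNORA73A had medians of 4150 and 2433 TPM and SNORA73B of 2729 and 1372 TPM, in MV4-11 and THP1, and both overlapped between the lines. RNU2-2P, a U2 small nuclear RNA gene, lay the other way with medians of 1442 and 1979 TPM. Each of the 5 was well below RPPH1 in mean TPM.

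The comparisons with DMSO ask whether IACS moved the 5 RNAs within a line. None of the 5 was called in limma at 8 h or 24 h in either line. At 8 h the share of genes called was 0.0148% in MV4-11 and 0.0144% in THP1, and at 24 h it was 0.0886% and 0.0431%, so calls were rare among all genes too. At an unadjusted p under 0.05 and any fold, RPPH1 in THP1 at 8 h was the only one of the 5 to pass in these 4 comparisons, in which 4.39% of genes (MV4-11, 8 h), 12.0% (MV4-11, 24 h), 2.11% (THP1, 8 h) and 8.61% (THP1, 24 h) passed. Between 24 h and 8 h of IACS, none of the 5 was called in limma, against 0.00% of genes in MV4-11 and 0.00718% in THP1, and RPPH1 in THP1 again passed at an unadjusted p under 0.05, as did 2.30% and 4.99% of genes.

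RPPH1 had a mean of 11951 TPM in THP1 DMSO, 16328 TPM after 8 h and 13114 TPM after 24 h. At 8 h its log2 fold change was 0.45 (SE 0.14, interval 0.14 to 0.76), with an unadjusted p of 0.00831 and an adjusted p of 0.941 in limma. From 8 h to 24 h it changed by -0.32 (SE 0.14), with an adjusted p of 0.981 in limma. In MV4-11 the log2 fold change of RPPH1 at 8 h was 0.36 (SE 0.25, interval -0.19 to 0.90), and at 24 h it was 0.17.

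RN7SL1 and RN7SL2, which share reads and are no separate cases, were below every DMSO library in all 3 MV4-11 libraries at 24 h, as were 5.26% of 13542 genes. Their log2 fold changes were -0.21 (interval -0.80 to 0.39) and -0.15 (interval -0.71 to 0.41), with adjusted p of 0.810 and 0.860 in limma. In THP1 at 24 h they were 0.20 (interval -0.14 to 0.53) and 0.15 (interval -0.12 to 0.42), and the groups overlapped. No label states a pairing there, but deviations from the group means correlated between libraries of the same replicate number (r = 0.146, 0.157 and 0.324). Within each of the 3 same-numbered pairs RN7SL1, RN7SL2 and the summed share, which holds both, were higher at 24 h. None of RN7SK, RMRP and RPPH1 rose in all 3 pairs. In replicate 2 RN7SK fell from 13.2 to 13.0% and RMRP from 2.61 to 2.47%. In replicate 1 RPPH1 fell from 1.26 to 1.16%. How many other genes rose in all 3 pairs was not counted. With the number as a block in limma the adjusted p was 0.381 for RN7SL1 and 0.519 for RN7SL2. The ratio of 7SL to RN7SK in MV4-11 was 1.30 to 1.55 in DMSO and 1.18 to 1.28 at 24 h without overlap, with an exact permutation p of 0.1, two-sided, the smallest that 3 against 3 libraries allow. Of the 16 comparisons of a ratio with DMSO this was the only one to reach that value, which among so many can also occur by chance.

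RN7SK and RMRP gave small fold changes whose size depended on the scale. RN7SK had log2 fold changes of -0.10 (8 h) and 0.03 (24 h) for MV4-11 and -0.04 (8 h) and 0.02 (24 h) for THP1, and the signs of the values for MV4-11 at 24 h and THP1 at 8 h turned when the TPM outside the 5 RNAs set the scale, while THP1 at 24 h became 0.16. RMRP had log2 fold changes of 0.12 and 0.00 for MV4-11 and 0.17 and 0.11 for THP1, and on that other scale the second value was -0.05 and those for THP1 were 0.29 and 0.25. The interval of RN7SK in MV4-11 at 8 h ran from -0.70 to 0.50, so a 1.5-fold decrease lay within it at this spread.

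**Figure D4:**
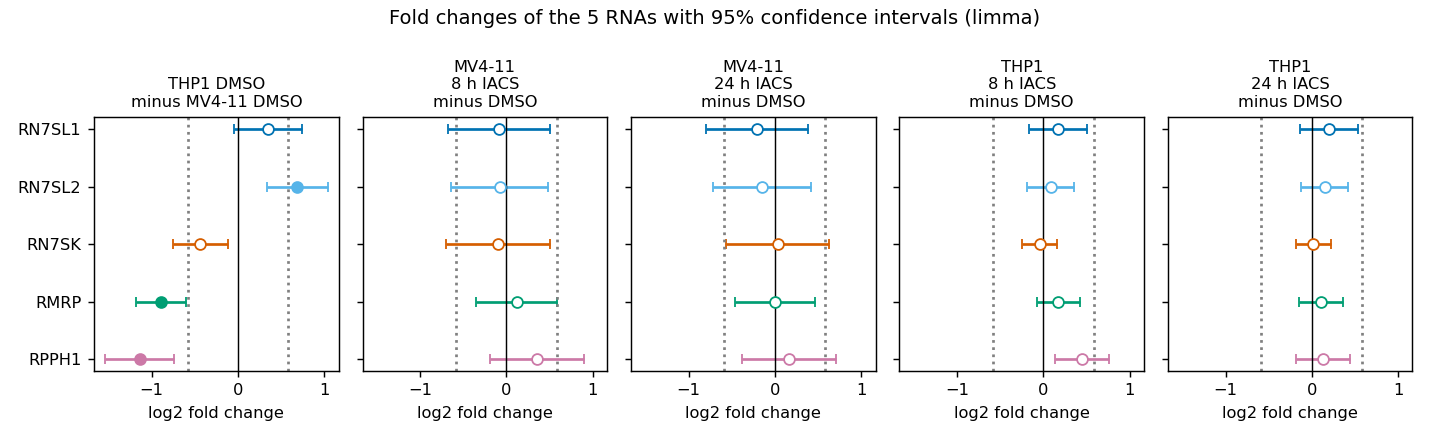
Log2 fold change of each RNA (x axis) with its 95% confidence interval from limma, for the comparison of the lines in DMSO and for IACS against DMSO in each line, with dotted lines at 1.5-fold. Filled points (RN7SL2, RMRP and RPPH1 between the lines) were called, and all 20 points for IACS are open.

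The response to IACS did not differ between the lines for any of the 5 RNAs beyond the limma threshold. The difference of the log2 fold changes, THP1 minus MV4-11, ran from 0.06 (RMRP) to 0.25 (RN7SL1) at 8 h and from -0.03 (RPPH1) to 0.40 (RN7SL1) at 24 h. None was called at either time, as against 0.00796% of genes at each, and none reached an unadjusted p under 0.05, as against 2.92% and 7.06% of genes. The interval for RN7SL1 at 24 h ran from -0.16 to 0.96.

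With the replicate number as a block in limma, the count of called RNAs among the 5 stayed at 0 in each of these comparisons, while the genes called rose from 6 to 296 in THP1 at 24 h, from 12 to 100 in MV4-11 at 24 h and from 1 to 114 between 24 h and 8 h in THP1.

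Because TPM sum to a constant, the 5 RNAs and the rest of a library moved against each other. In THP1 the TPM outside the 5 RNAs changed by -0.11 at 8 h and -0.15 at 24 h on the log2 scale, and the median log2 fold change over 13928 genes was -0.12 at both times. In MV4-11 the rest changed by 0.02 and 0.06, and the median over 13542 genes was 0.06 and 0.08. With the TPM outside the 5 RNAs as the scale, the medians were -0.02 and 0.01 in THP1 and 0.05 and 0.03 in MV4-11. The split of calls moved with it in THP1 at 24 h, where 1 of the 6 genes called was higher as deposited and 45 of 83 on the other scale. In MV4-11 at 24 h it stayed mostly higher, with 10 of 12 genes as deposited and 78 of 98 on the other scale. At 8 h few genes were called on either scale: 0 of 2 were higher on both in THP1, and 1 of 2 and 4 of 6 in MV4-11.

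Gene by gene the same opposition was seen within groups. After the group means were taken off, of the 7658 genes that averaged 10 TPM or more, 1.74% had a Pearson r above 0 with the summed TPM of the 5 RNAs over 18 libraries, and the median r was -0.80. With the other genes scaled to the TPM outside the 5 RNAs the median r was -0.17. The 5 rows most like the summed level were RN7SL4P (r = 0.79), ABCA1 (0.78), RN7SL5P (0.76), SCARNA10 (0.69) and RNU12 (0.68). All but ABCA1, a cholesterol exporter, are small RNA rows. RN7SL4P and RN7SL5P belong to the 7SL family, which forms part of the sum, and whether they share its reads was not tested. The lowest were PRC1 (-0.99), SEPT8 (-0.99), ARPC2 (-0.99), ARHGEF39 (-0.99) and PPIE (-0.98). With the same scaling, r was 0.88, 0.82, 0.86, 0.83 and 0.73 for the first 5 in that order. For the lowest 5 it was -0.96, -0.84, -0.68, -0.85 and -0.92.

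The co-variation of the 5 RNAs between libraries was measured within each line, since the lines form separate clusters. RN7SL1 and RN7SL2 rose and fell together, with r = 0.97 in MV4-11 and 0.98 in THP1 on log2 TPM (Spearman's rho 0.97 in both, n = 9). The adjusted p was 0.000193 for each r and 0.00165 for each rho by an exact permutation test, adjusted over 20 pairs, and r was 0.99 in both without the 2 libraries farthest from the median. The copies share reads, which enters this value. Of the 18 other pairs, none had an adjusted p under 0.05.

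RN7SK followed 7SL in MV4-11 through few libraries. There r was 0.73 with RN7SL1 (rho 0.27) and 0.74 with RN7SL2 (rho 0.18), each with an adjusted p of 0.0717 by the exact permutation test, and without the 2 farthest libraries the first became -0.54 and the second 0.23. As deviations from the group means they were 0.92 and 0.87, with an adjusted p of 0.222 each by an exact permutation test. In THP1 the 2 values were -0.49 and -0.36, and the second became -0.92 without the 2 farthest libraries. RN7SK ran against RPPH1 in both lines, with r = -0.78 (rho -0.53) in MV4-11 and -0.73 (rho -0.77) in THP1, and against RMRP in MV4-11, with r = -0.68 (rho -0.75). In THP1 RMRP ran with RN7SL1 (r = 0.70, rho 0.73) and RN7SL2 (r = 0.70, rho 0.75). The adjusted p of these 5 values of r was 0.0717 each by the exact permutation test, that of rho ran from 0.102 to 0.268, and r without the 2 farthest libraries ran from -0.56 to 0.78.

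The signs of several pairs changed with the scale. Relative to the TPM outside the 5 RNAs, all 10 pairs had r above 0 in THP1 and 9 had an adjusted p under 0.05 by the exact permutation test, and in MV4-11 7 pairs were above 0 and 3 had an adjusted p under 0.05. On that scale RN7SK and RPPH1 in THP1 had r = 0.54 and RN7SK and RMRP in MV4-11 had r = 0.24. All values on that scale share a divisor.

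**Figure D5:**
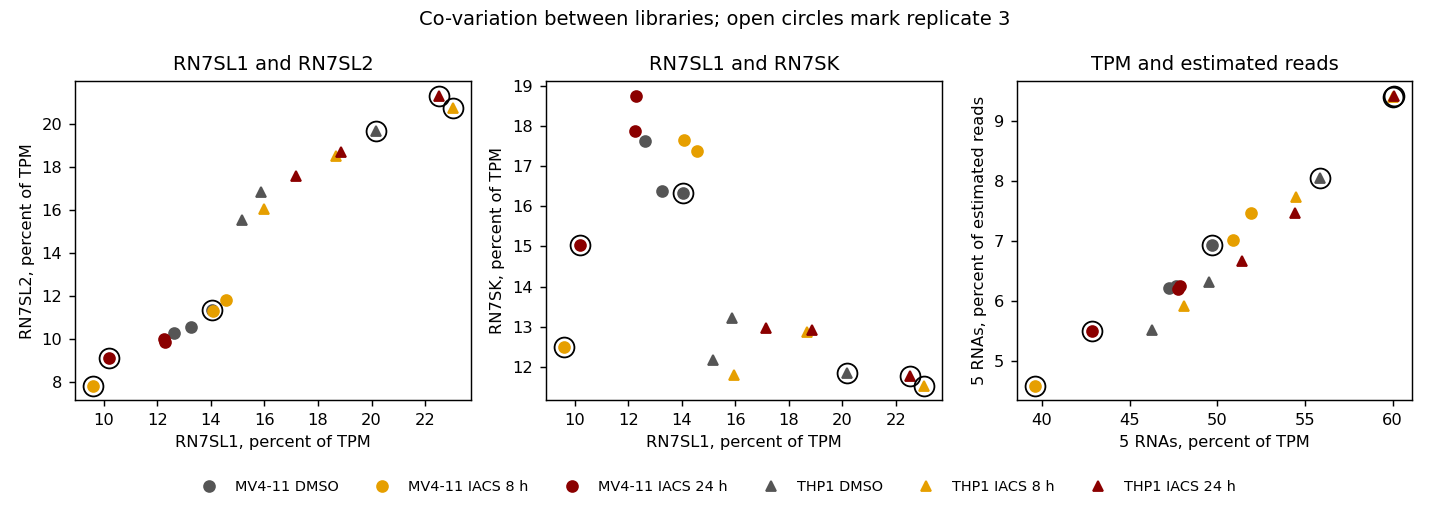
Percent of TPM of RN7SL2 and RN7SK against RN7SL1 (left and middle) and percent of estimated reads against percent of TPM for the 5 RNAs (right), 1 point per library, with open circles around replicate 3. RN7SL1 and RN7SL2 fall on a narrow band within each line, RN7SK does not, and the circled libraries lie at the ends of the range in THP1 and at the low end in MV4-11 after IACS.

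Replicate 3 stood apart in the share of the 5 RNAs. In THP1 it was the highest of its group in all 3 groups (55.8% against 46.3% and 49.6% in DMSO, for example), and 7SL alone reached 39.8%, 43.8% and 43.8% there. In MV4-11 replicate 3 was the highest in DMSO and the lowest in both IACS groups. Without these 6 libraries, the MV4-11 log2 fold changes of RN7SL1 and RN7SL2 at 8 h turned from -0.08 each to 0.15, that of RN7SK turned from -0.10 to 0.04, and none of the 5 was called for IACS.

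Other measures of a library moved with the summed share in THP1. There r was -0.89 (rho -0.87) with the number of genes at 1 TPM or more, -0.84 (rho -0.85) with the percent of TPM on replication-dependent histone genes, 0.78 (rho 0.68) with that on small nuclear RNAs and -0.55 (rho -0.58) with that on mitochondrially encoded genes. In MV4-11 the same values were -0.46 (rho -0.28), -0.61 (rho -0.68), 0.69 (rho 0.73) and -0.50 (rho -0.73). They are given as a description with n = 9 libraries each, without a p, since the sum was formed over RNAs chosen for their level and all these percents share 1 total. The part of these measures in the differences above was not tested.

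The proteins that work with the 5 RNAs were followed in 5 lists, whose counts stand beside the 31.5% of all genes called between the lines. Of the 8 genes of the signal recognition particle and its receptor, 1 was called between the lines in DMSO: SRP9, which binds the Alu domain of 7SL together with SRP14, was 311 ± 43.4 TPM in THP1 and 176 ± 12.8 TPM in MV4-11 (log2 fold change 0.81, adjusted p = 0.000102 in limma). SRP14 was 128 and 146 TPM and was not called. The median log2 fold change of the list was 0.08, beside -0.01 for all genes tested.

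Of the 11 genes of the 7SK particle and P-TEFb, 1 was called, a smaller share than over all genes. MEPCE, the enzyme that caps 7SK, was 46.1 ± 3.34 TPM in THP1 and 69.7 ± 4.37 TPM in MV4-11 (log2 fold change -0.59, adjusted p = 0.00590 in limma), just past the fold threshold. HEXIM1 was 14.3 and 15.2 TPM, LARP7, which binds the 3′ end of 7SK, 31.2 and 29.5 TPM and CDK9, the kinase of P-TEFb, 35.2 and 39.3 TPM, none of them called. The highest of the list was AFF1 with a mean of 54.1 TPM. The study lists a KMT2A-AFF1 fusion in MV4-11, and its part in this level was not tested.

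The 11 protein subunits of RNase P and RNase MRP gave 4 calls, near the share over all genes. RPP40 (4.87 ± 1.14 against 20.4 ± 1.20 TPM), POP4 (12.3 against 25.3 TPM) and RPP21 (1.71 against 3.41 TPM) were lower in THP1, with log2 fold changes of -1.88, -0.99 and -0.71. RPP25 was higher, at 25.7 against 15.2 TPM. The median log2 fold change of the list was -0.30.

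Of the 13 genes of RNA polymerase III, POLR3B, the second largest subunit, was called, at 7.49 against 14.2 TPM (log2 fold change -0.84, adjusted p = 0.000543 in limma). Of the 20 genes of its initiation and control, 3 were called higher and 1 lower in THP1. The higher ones were POU2F1, which activates several of these promoters, GTF3C6 and GTF3A. They were at 28.8 against 14.0, 158 against 98.9 and 74.4 against 48.3 TPM. MAF1, the repressor of polymerase III, was lower at 66.6 ± 2.74 against 125 ± 7.72 TPM (log2 fold change -0.90, adjusted p = 0.000326 in limma). Both lists held a smaller share of calls than all genes, and their median log2 fold changes were -0.18 and 0.06. Under IACS, 0 genes of the 5 lists were called in limma at 8 h or 24 h in either line. Over all genes 0.0144% to 0.0886% were called there, so lists of this size would rarely hold a call.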

How the data were processed

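The 18 libraries were grouped by their labels into 2 cell lines and 3 treatments with 3 libraries each. The authors deposited TPM per gene symbol. Per their methods, RNA was isolated with an on-column DNase step, libraries were made with the TruSeq RNA v2 kit, and paired-end reads of 100 bases were trimmed, aligned to GRCh38 and counted in CLC Genomics Workbench v20. How reads that fit several copies were divided, and which annotation was used, are not given in the sources used here. TPM divide by length, so RNAs of some 300 bases weigh more than in reads, and the deposited TPM give no depth. Reads were estimated from exon lengths of GENCODE 44, which matched 62.1% of the 45372 symbols and 94.6% to 97.2% of the TPM.

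log2(TPM + 1) was tested with limma 3.58.1 in R 4.3.3 (lmFit, eBayes with a trend) over genes averaging 1 TPM or more, in 1 fit per line or 1 fit of 18 libraries. Simulated data for the 24 h comparison in MV4-11 served as a test of the script. A Kruskal-Wallis test, which the study names, was run as an alternative on pairs of groups, where its exact p cannot go below 0.1 with 3 against 3 libraries. Ratios and pairs of RNAs were tested by exact permutation in Python 3.11.15. The members and the gene lists were chosen with earlier results of these data known. Genes were named by rule: the 5 RNAs, called genes and the highest gene of each list, the 5 next small noncoding RNAs, and the 5 most and least alike. 0 columns of the table were left unused.

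Same-numbered replicates were checked for pairing by the correlation of their deviations from the group means. It was above 0.1 for every pair between DMSO and 24 h and between 8 h and 24 h in THP1 and between 8 h and 24 h in MV4-11, where it ran from 0.11 to 0.441, and below 0.1 for at least 1 pair elsewhere. The block of replicate number was run as an alternative, beside other pseudocounts (0.1), filters (none, 10 TPM), scalings and left-out libraries. The replicates are called independent without saying what was separate, so p-values measure the spread between these libraries. Some sequences and 1 marker gene are not reported here.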

Additional observations from a re-analysis of the deposited data

Results flagged for a closer look

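The log2 ratio of RN7SL1 to RN7SL2 in MV4-11 held 1 library far from the other 8: replicate 3 of 24 h IACS, at 0.158, a ratio of 1.12, where the others lay between 1.22 and 1.26. Its gap to the nearest library was 0.783 of the range of 9 libraries, which mix 3 treatments, and exceeded the 95% limit of Dixon's test. Of 22 such groups examined 1 was marked, and about 1 in 20 is marked by chance.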

How the results depend on the processing

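No alternative called any of the 5 RNAs for IACS: the count was 0 in all 162 fits of the treatment comparisons. Between the lines in DMSO the count was 3 under 24 of 27 alternatives, 2 under both other scalings and 0 without a filter on low values, and the cause was not tested. The replicate block changed no call among the 5 (0 for each IACS comparison, and 39 block values kept direction and side of the threshold), but called 296 genes instead of 6 in THP1 at 24 h, 100 instead of 12 in MV4-11 at 24 h, 10 instead of 2 in MV4-11 and 9 instead of 2 in THP1 at 8 h, 114 instead of 1 in THP1 and 1 instead of 0 in MV4-11 between 24 h and 8 h, and 94 instead of 1 for the difference of the lines at 24 h. Between the lines in DMSO, whose numbers name different cultures, the block left 3 called. Over all genes at 24 h, median-of-ratios scaling called 79 in MV4-11 and 100 in THP1, the TPM outside the 5 RNAs as the scale 98 and 83, a call without adjustment 269 and 307, no filter 2 and 4, a minimum of 10 TPM 7 and 14, and a pseudocount of 0.1 called 6 and 7. Without the libraries numbered 3, a setting chosen after the data were seen, the counts were 320 and 181.

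Of 520 fold changes of the 5 RNAs under alternatives, 22 turned sign, none of them called. With median-of-ratios scaling RN7SK became -0.0548 and RMRP -0.0831 in MV4-11 at 24 h and RN7SK 0.11 in THP1 at 8 h, and relative to the TPM outside the 5 RNAs the same values were -0.0231, -0.0514 and 0.0730. With libraries left out, MV4-11 at 8 h ranged from -0.19 to 0.15 for RN7SL1, -0.19 to 0.15 for RN7SL2 and -0.19 to 0.0628 for RN7SK, and at 24 h from -0.0333 to 0.13 for RN7SK, -0.0694 to 0.0637 for RMRP and -0.0190 to 0.27 for RPPH1. THP1 ranged at 8 h from -0.0028 to 0.18 for RN7SL2 and -0.0883 to 0.0058 for RN7SK, and at 24 h from -0.0155 to 0.0641 for RN7SK.

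The summed share in MV4-11 changed by -2.97 to 3.93 percentage points at 8 h and -2.89 to 0.35 at 24 h with libraries left out, and by 3.23 and 0.12 as differences of medians. Between the lines it differed by 1.82 to 6.96 with libraries left out and by 1.12 as a percent of estimated reads. In DMSO alone, where 3 against 3 libraries cannot pass the threshold, the log2 ratio differences were 0.95 for 7SL to RN7SK, 0.25 for RMRP to RPPH1, -0.34 for RN7SL1 to RN7SL2 and 1.40 for 7SL to RMRP. RMRP to RPPH1 was 0.27 without the libraries numbered 3.

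Pairs with an adjusted p under 0.05 numbered 1 in each line. Relative to the TPM outside the 5 RNAs they numbered 3 in MV4-11 and 9 in THP1, without the 2 farthest libraries 2 in THP1, and 0 in both lines as deviations from group means and without the libraries numbered 3, where fewer orderings exist. RN7SL1 and RN7SK in MV4-11 became -0.54 without the 2 farthest libraries and -0.44 without those numbered 3, and RN7SL2 and RN7SK became 0.23 and -0.40. On the other scale RN7SK had r = 0.24 with RMRP in MV4-11 and 0.54 with RPPH1 in THP1. The summed share and small nuclear RNAs in THP1 had r = 0.66 without the 2 farthest libraries.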
